A study of Mus musculus with 6 samples.

Results

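Cyclic nucleotide phosphodiesterases break down the second messengers cAMP and cGMP, and the CREB factors are the transcription factors that read out the cAMP signal in the nucleus. The 10 genes described here are the phosphodiesterase genes Pde10a, Pde2a, Pde3b, Pde4a, Pde4b, Pde4d, Pde7a and Pde8a and the CREB family genes Creb1 and Crem, out of 24062 genes in the deposited table, matched by symbol, and all 10 were found. They were chosen by gene family with the CPM values of these same 6 libraries in view, so their differences between the groups are given as a description, with no p-value. The standard errors (SE) and intervals are those of the group difference in a limma fit, with variances moderated across all genes tested. The spread of the pools is given as SD. Counts of these genes past a threshold are not evidence of a difference. RNA was sequenced from sorted mouse hematopoietic stem cells (HSC), which give rise to every blood lineage; the sort markers and ages are not given in the labels. CDKO pools came from mice with floxed Nr4a1 alleles, no Nr4a3 and a Rosa26-ERt2 construct (a name commonly used for Cre that tamoxifen switches on, driven from a broadly active locus). Control pools came from mice with the floxed Nr4a1 alleles and no Nr4a3, without that construct. Mice of both groups received tamoxifen at 120 mg per kg on each of 4 days and HSC were sorted on day 5, with 3 pools a group and 3 to 5 mice in each pool. Both groups lacked Nr4a3, so no pool was wild type, and the presence of Cre cannot be told apart from the loss of Nr4a1.

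A hormone or prostaglandin that binds a Gs-coupled receptor turns on adenylyl cyclase, and the cAMP made then activates protein kinase A (PKA) and the exchange factors called EPAC. PKA phosphorylates CREB, which binds the cAMP response element (CRE) in promoters and recruits the acetyltransferases CBP and p300, with CRTC proteins as further coactivators. Phosphodiesterases set how long and how far the signal spreads, and the NR4A receptor genes, of which Nr4a1 and Nr4a3 are disrupted in these mice and Nr4a2 is not, are themselves classic CREB targets. In HSC, prostaglandin E2 acting through cAMP is known to support survival and homing.

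Levels are reads per 1000000 counted reads (CPM), and the libraries held 32863805 to 42772261 reads, so that 3 reads, the limit that a count of 0 allows, stood at 0.0701 to 0.0913 CPM (counting error only). Nr4a1 was at 8.52, 9.76 and 9.12 CPM in CDKO pools, against 15.2, 13.4 and 12.9 CPM in control pools, and Nr4a3 had 0 reads in all 6 libraries. Of 10 HSC markers 5 were higher and 5 lower in CDKO pools, with a summed level of 4512 to 4720 CPM in CDKO pools and 4887 to 5143 CPM in control pools. All 9 neutrophil markers fell, with sums of 15.4 to 81.0 CPM in CDKO pools against 775 to 1019 CPM in control pools, and CDKO replicate 3 held the highest of the CDKO sums. All 3 eosinophil markers fell (9.98 to 11.1 CPM in CDKO and 191 to 227 CPM in control pools), as did 5 of 6 tested erythroid markers (43.1 to 49.1 and 202 to 224 CPM, with Hbb-bt at 0 throughout) and 5 of 6 basophil and mast cell markers (455 to 479 and 689 to 729 CPM). Most of the basophil and mast cell sums was Gata2, whose groups overlapped (451 to 475 CPM in CDKO and 466 to 489 CPM in control pools). Prss34 of that list was at 0.0304, 0.482 and 0.0234 CPM in CDKO pools, against 185, 142 and 163 CPM in control pools. Most of the erythroid sum in CDKO pools was Epor (29.1 to 32.6 CPM, and 26.4 to 27.7 CPM in control pools). In the other direction, 5 of 6 megakaryocyte markers rose (538 to 552 CPM in CDKO and 392 to 416 CPM in control pools), as did 3 of 4 monocyte and macrophage markers, of which 1 fell (31.9 to 35.1 and 17.9 to 20.5 CPM). Endothelial and stromal markers summed to 100.3 to 115 CPM in CDKO pools and 80.9 to 91.1 CPM in control pools, with 2 of 3 tested higher. B cell markers were at 57.7 to 61.4 and 45.9 to 54.5 CPM (1 higher and 1 lower of 4 tested, Ms4a1 at 0), and T and NK cell markers at 58.7 to 62.2 and 42.1 to 47.2 CPM (1 higher of 2 tested, Cd3e at 0). The part of these other cell types in the values below was not tested, and in pooled cells fewer cells of a type and less RNA per cell cannot be told apart.

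For 6 of the 10 genes the CDKO pools did not overlap the control pools, with Pde10a, Pde7a and Creb1 higher and Pde2a, Pde4d and Pde4b lower in CDKO HSC. The groups of Pde3b, Pde4a, Pde8a and Crem overlapped. Among all 13732 genes tested, 70.7% had groups that did not overlap. In the fit across all genes (limma on log2(CPM + 1), adjusted p under 0.05) the same 6 of 10 passed the threshold, 3 higher and 3 lower, where the share of all genes called was 66.2%. Both counts rest on the values the genes were chosen with, and nothing is read from them. In 15 alternative analyses, described below, Creb1 passed in 8 and Pde4b in 13. Pde10a, Pde2a, Pde4d and Pde7a passed in all 15, and Pde3b passed in 1. The median log2 difference was -0.08 over the 10 genes and -0.02 over all genes tested. All 10 passed the filter of a mean of at least 10 reads.

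**Figure D1:**
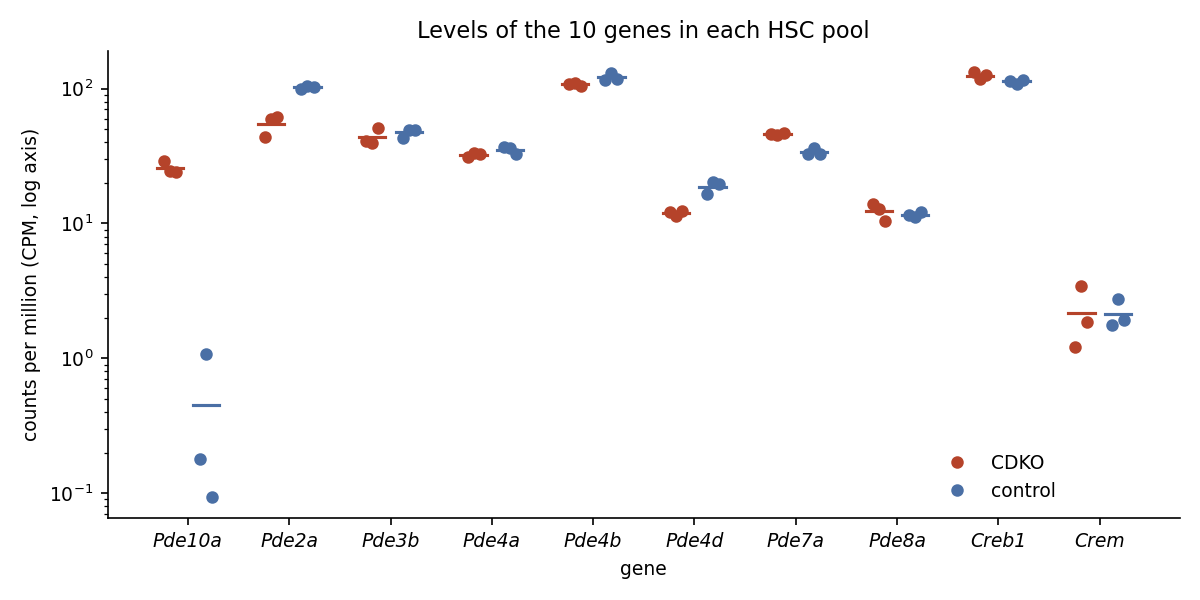
CPM of the 10 genes in each HSC pool on a log axis, with CDKO pools (red) left of control pools (blue). Points are single pools and short lines are group means (3 pools each). Pde10a stands at 23.9 to 29.0 CPM in CDKO pools and 0.0945 to 1.07 CPM in control pools, while most other genes differ by much less.

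Pde10a encodes an enzyme that hydrolyses both cAMP and cGMP and is best known from the striatum of the brain (mm10 chr17:8525372-8986648, plus strand). It had 29.0, 24.4 and 23.9 CPM in CDKO pools 1 to 3, against 0.179, 1.07 and 0.0945 CPM in control pools 1 to 3. In reads this was 952, 1011 and 1022 in CDKO pools, against 7, 39 and 4 in control pools. All CDKO pools lay far above all control pools, and control replicate 2 held most of the control reads. The ratio of group means was 57.5 (25.7 ± 2.80 CPM in CDKO and 0.448 ± 0.540 CPM in control, SD, n = 3 each), or 188 without control replicate 2 and 41.2 to 59.6 without any other 1 library. On the log2(CPM + 1) scale the difference was 4.26 (SE 0.22).

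The windows before the RefSeq starts of Pde10a are shown because this gene had the largest difference of the 10. They are read from RefSeq on GRCm38.p6, the assembly behind mm10, on the plus strand, at chr17:8801495-8801692 (up to the GENCODE exon inside that window) and chr17:8849735-8849984. Both lie inside the GENCODE gene, whose farthest upstream start is at 8525372, and the sequence before that start was not analysed here. GC content over the 250 bases before each start was 72.8% and 56.0%.
Pde10a upstream RefSeq start: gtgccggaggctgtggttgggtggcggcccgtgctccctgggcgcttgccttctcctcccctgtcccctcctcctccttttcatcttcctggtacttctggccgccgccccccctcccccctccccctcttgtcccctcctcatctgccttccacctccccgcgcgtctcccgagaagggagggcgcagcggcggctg
Pde10a downstream RefSeq start: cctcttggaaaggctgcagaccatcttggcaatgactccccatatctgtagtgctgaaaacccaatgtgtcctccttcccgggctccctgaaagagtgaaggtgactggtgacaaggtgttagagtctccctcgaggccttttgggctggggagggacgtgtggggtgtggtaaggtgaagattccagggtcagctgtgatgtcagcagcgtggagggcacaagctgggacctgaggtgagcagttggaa
Neither 250-base window held the full CRE (TGACGTCA), its 5-base core (TGACG, or CGTCA on the other strand; each full CRE also holds this core) or the NBRE, the site bound by single NR4A receptors (AAAGGTCA, or TGACCTTT on the other strand). Of 32851 promoters in the table, 1.55% held the full CRE, 17.8% the core and 1.34% the NBRE in the same 250 bases.

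By likeness of profile, the 5 other genes nearest to Pde10a, by Euclidean distance on log2(CPM + 1) over the 6 libraries, were Spry4 (1.37), Trpm6 (1.53), Tlr3 (1.63), Zfp365 (1.84) and Flt4 (1.92). They stood at 12.0 to 20.7 CPM on average in CDKO pools and 0.0640 to 1.32 CPM in control pools. With 2 groups of 3 pools, the distance mostly reflects the level in each group.

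Pde2a, whose enzyme hydrolyses cAMP and cGMP and is itself stimulated by cGMP (chr7:101421691-101512827, plus strand), was at 44.1, 59.4 and 61.3 CPM in CDKO pools, against 99.5, 105 and 104 CPM in control pools. The groups were well apart, and CDKO replicate 1 was the lowest pool. The mean was 46.6% lower in CDKO (54.9 ± 9.43 CPM in CDKO and 103 ± 2.97 CPM in control, SD, n = 3 each), with a log2 difference of -0.91 (SE 0.10). In GENCODE, 87.9% of the exon bases of Pde2a also belong to Gm45837 on the same strand. No values under that symbol were found among the deposited ones used here, so it was not merely filtered out for low reads. Whether the annotation used for counting held Gm45837 is not known. If it did, how shared reads were counted bears on the Pde2a level.

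Pde3b, the cGMP-inhibited enzyme that acts downstream of insulin signalling (chr7:114415281-114539251, plus strand), was at 40.8, 39.8 and 50.6 CPM in CDKO pools, against 43.2, 49.7 and 49.6 CPM in control pools. CDKO replicate 3 was the highest of all 6 pools and the groups overlapped. The log2 difference was -0.12 (SE 0.10, 95% interval -0.34 to 0.09), and leaving out 1 library moved it between -0.23 (without CDKO replicate 3) and -0.06 (without CDKO replicate 2). Its partner Pde3a had 0 reads in all CDKO pools, against 0, 0 and 0.283 CPM in control pools, which is 12 reads in control replicate 3 alone.

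The PDE4 enzymes are cAMP-specific and are the main phosphodiesterases of immune cells. Pde4b (chr4:102087543-102607259, plus strand) was the most abundant of them, at 108, 111 and 105 CPM in CDKO pools, against 116, 130 and 117 CPM in control pools. All CDKO pools were below all control pools by a small margin, with means 10.9% apart (log2 difference -0.16, SE 0.06). Pde4d (chr13:108449948-109953461, plus strand), the long gene with many alternative starts, was at 12.2, 11.4 and 12.3 CPM in CDKO pools, against 16.4, 20.2 and 19.6 CPM in control pools. Its groups were clearly apart, with a mean of 12.0 ± 0.541 CPM in CDKO and 18.7 ± 2.03 CPM in control pools (SD, n = 3 each), which is 36.1% lower in CDKO, and a log2 difference of -0.60 (SE 0.12).

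Pde4a (chr9:21165714-21213248, plus strand) was at 31.2, 33.2 and 32.9 CPM in CDKO pools, against 37.0, 36.0 and 32.8 CPM in control pools. The lowest control pool lay among the CDKO pools, and the log2 difference was -0.12 (SE 0.08, 95% interval -0.29 to 0.06). The fourth gene of the subfamily, Pde4c, was low in both groups, at 4.26 ± 1.57 CPM in CDKO and 3.70 ± 0.650 CPM in control pools (limma adjusted p = 0.593).

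Pde7a, a cAMP-specific enzyme prominent in T cells (chr3:19223108-19311322, minus strand), was also higher in CDKO HSC. It was at 45.7, 45.2 and 46.5 CPM in CDKO pools, against 32.5, 36.1 and 32.9 CPM in control pools. The CDKO pools were close to each other and all above the control pools, with means 35.4% apart (log2 difference 0.43, SE 0.07). An antisense gene, Gm16093, shares 0.740% of its exon bases. Its relative Pde7b was low, at 0.189 ± 0.162 CPM in CDKO and 0.714 ± 0.268 CPM in control pools. In reads this was 4, 3 and 16 in CDKO pools, near the limit of detection, against 17, 27 and 41 in control pools. The groups of Pde7b did not overlap.

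Pde8a encodes a cAMP-specific enzyme of very high affinity (chr7:81213596-81334533, plus strand). It was at 14.0, 12.9 and 10.5 CPM in CDKO pools, against 11.6, 11.2 and 12.2 CPM in control pools. CDKO pools lay on both sides of the control pools, with a log2 difference of 0.08 (SE 0.13, 95% interval -0.21 to 0.37). It was -0.0033 without CDKO replicate 1 and 0.19 without CDKO replicate 3. Its relative Pde8b fell to 2.63 ± 0.0514 CPM in CDKO pools, against 5.21 ± 0.637 CPM in control pools (log2 difference -0.77, limma adjusted p = 0.00064).

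Creb1, the CREB factor itself (chr1:64532645-64604548, plus strand), was at 133, 117 and 125 CPM in CDKO pools, against 114, 109 and 116 CPM in control pools. The lowest CDKO pool stood just above the highest control pool, with means 10.6% apart (log2 difference 0.14, SE 0.06). Crem (chr18:3266048-3337748, minus strand) encodes both activators and the inducible repressor ICER, which the gene-level counts do not separate. It was at 1.22, 3.45 and 1.85 CPM in CDKO pools, against 1.76, 2.77 and 1.91 CPM in control pools, or 40 to 143 reads. The CDKO pools lay on both sides of the control pools and had the widest relative spread of the 10 genes in CDKO HSC (coefficient of variation 53.0%), so its log2 difference of -0.04 (SE 0.24) has a 95% interval from -0.56 to 0.48. Its sign depended on single libraries, with 0.19 without CDKO replicate 1, 0.01 without CDKO replicate 3 and 0.10 without control replicate 2. It was -0.31 when CDKO replicate 2 was left out, 0.19 after quantile normalization and 0.03 by edgeR and by DESeq2. Leaving out 1 library moved the log2 difference of Creb1 between 0.10 and 0.19 and that of Pde4b between -0.19 and -0.11.

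**Figure D2:**
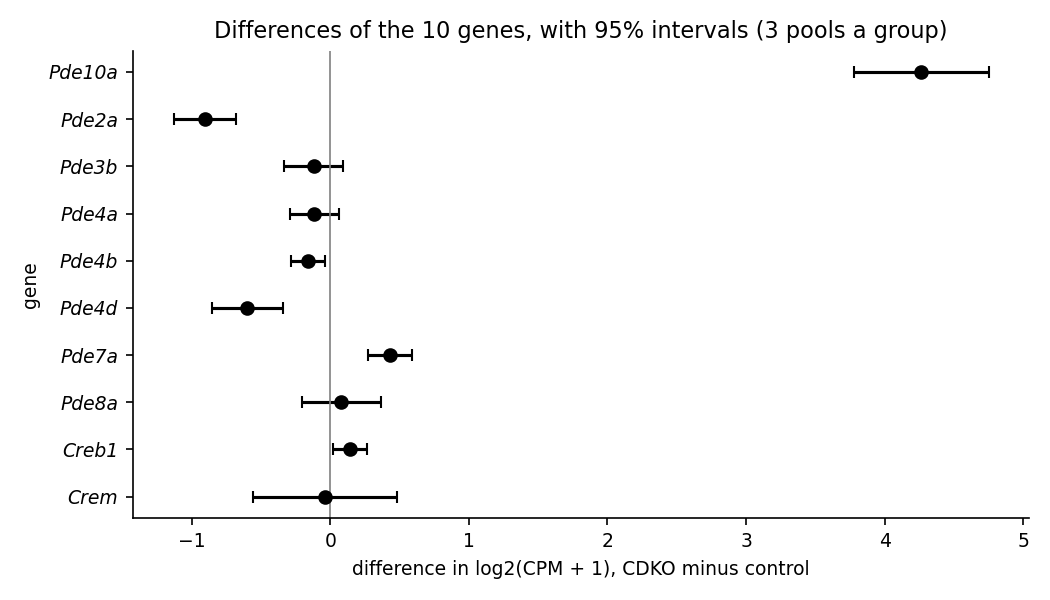
Difference in log2(CPM + 1), CDKO minus control, for the 10 genes, with 95% intervals from the limma fit (3 pools a group). Pde10a is at 4.26, Pde2a at -0.91, Pde4d at -0.60 and Pde7a at 0.43, and the other 6 lie between -0.16 and 0.14.

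Divided by the length of the merged GENCODE exons, the levels can be ordered between genes. In CDKO pools the order in CPM per kb was Creb1 (14.2 ± 0.906), Pde4b (13.2 ± 0.364), Pde2a (12.4 ± 2.13), Pde7a (7.06 ± 0.0987), Pde3b (6.65 ± 0.910), Pde4a (5.82 ± 0.198), Pde8a (3.27 ± 0.470), Pde10a (2.84 ± 0.309), Pde4d (1.80 ± 0.0815) and Crem (0.437 ± 0.232; SD, n = 3 each). The ranges of Creb1 and Pde4b, of Pde4b and Pde2a, of Pde7a and Pde3b and of Pde8a and Pde10a overlapped, so these neighbours are not ordered beyond their spread. In control pools Pde2a came first at 23.2 ± 0.670 CPM per kb, followed by Pde4b (14.9 ± 0.952), Creb1 (12.9 ± 0.424), Pde3b (7.22 ± 0.566), Pde4a (6.33 ± 0.395), Pde7a (5.22 ± 0.299), Pde8a (3.06 ± 0.128), Pde4d (2.82 ± 0.305), Crem (0.433 ± 0.109) and Pde10a (0.0493 ± 0.0595). Here only Pde3b with Pde4a and Pde8a with Pde4d had ranges that overlapped. Pde10a was thus last of the 10 in control pools and level with Pde8a in CDKO pools, and Pde7a stood above Pde4a in CDKO pools and below it in control pools. The top of the order depends on the length used. Merged exons of Pde4b span 8.157 kb and its longest transcript 4.304 kb. By longest transcript, Pde4b stood above Pde2a in control pools and above Creb1 in CDKO pools.

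The make-up of the whole family was compared over 21 catalytic phosphodiesterase genes. The same merged exon lengths were used, so the size of each share depends on them, and shares by longest transcript were not computed. Their summed level was 73.7, 75.5 and 76.6 CPM per kb in CDKO pools, against 85.5, 90.3 and 89.6 CPM per kb in control pools, and the groups did not overlap. The 8 phosphodiesterases described here made up 70.5 ± 1.38% of that sum in CDKO and 70.9 ± 1.36% in control pools (SD, n = 3 each). Within it the share of Pde2a was 13.5, 17.8 and 18.1% in CDKO pools, against 26.3, 26.3 and 26.1% in control pools. The share of Pde10a was 3.78 ± 0.487% in CDKO and 0.0551 ± 0.0656% in control pools, and that of Pde7a was 9.39 ± 0.173% and 5.89 ± 0.247%. The 4 PDE4 genes together held 29.3 ± 1.02% in CDKO and 28.3 ± 1.27% in control pools, with overlapping ranges.

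**Figure D3:**
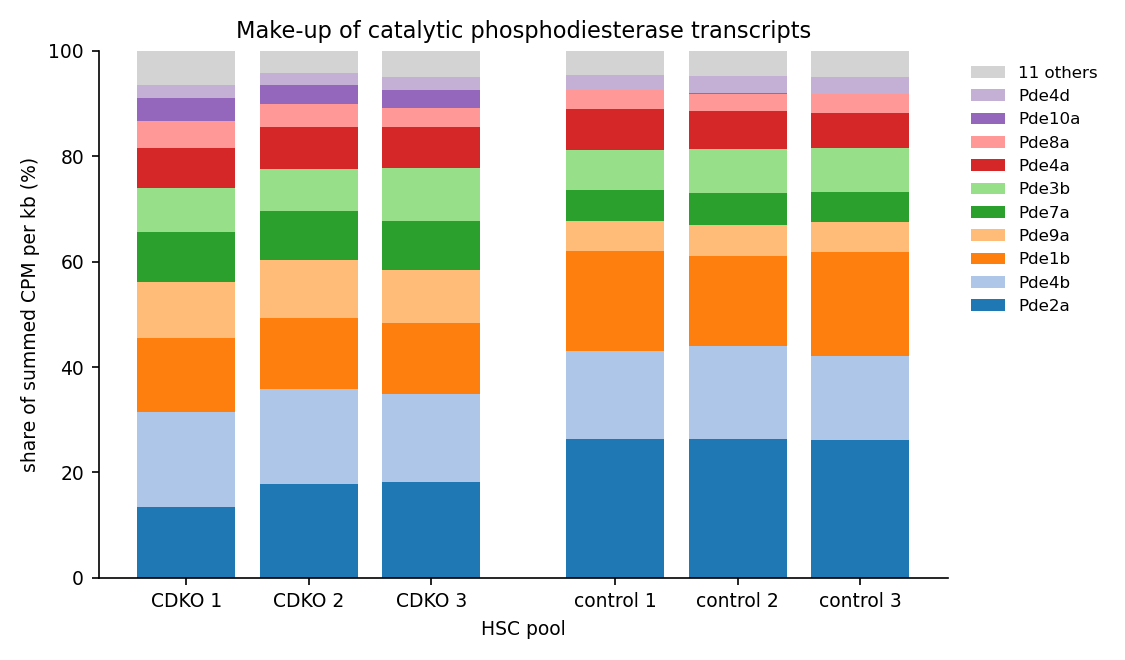
Share of the summed CPM per kb of 21 catalytic phosphodiesterase genes held by each gene, for CDKO pools 1 to 3 (left) and control pools 1 to 3 (right). The Pde2a block is smaller in every CDKO pool (13.5 to 18.1%) than in the control pools (26.1 to 26.3%), and the Pde10a block is visible in CDKO pools only.

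Promoter sequence was available in the RefSeq table for 7 of the 10 genes, with 17 starts. None of the 17 windows of 250 bases held a full CRE or an NBRE. The 5-base core of the CRE was in 3 of the 17, where 17.8% of all 32851 promoters held it. These are shown with 18 bases on each side because they are the members' nearest matches to the site that CREB reads, with the core in capitals, all on the plus strand of GRCm38.p6. They lie at chr4:102421503-102421543, chr9:21184033-21184073 and chr7:81213163-81213203. For comparison, Nr4a1, the CREB target deleted by design, had 4 such cores, and the 2 nearest to its start (chr15:101266759-101266799 and chr15:101266788-101266828) are given below them.
Pde4b: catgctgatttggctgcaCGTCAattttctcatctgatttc
Pde4a: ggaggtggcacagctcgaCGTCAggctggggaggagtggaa
Pde8a: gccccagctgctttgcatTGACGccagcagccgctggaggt
Nr4a1 farther core: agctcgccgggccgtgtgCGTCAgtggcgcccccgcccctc
Nr4a1 nearer core: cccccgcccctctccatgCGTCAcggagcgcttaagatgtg
The genes with a core (Pde4b, Pde4a, Pde8a) had log2 differences of -0.16, -0.12 and 0.08. Pde4b and Pde4a have further RefSeq starts with no core, and the gene-level counts do not show which start was used. In the Pde4b stretch shown, 26 bases lie in an annotated GENCODE exon. A match of letters is a description and not evidence of binding.

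The rest of the pathway was read from 8 lists of 108 other genes, all present in the table, of which 77 passed the filter on low values. Of these 77, 17 rose and 34 fell (limma, adjusted p under 0.05), which is 66.2% called, where 31.1% of all genes tested rose and 35.2% fell. The 34 include Nr4a1, the gene deleted by design. The median log2 difference of the 77 was -0.16. Of those called, Pde7b, Adcy5, Npr1, Ptger2, Ptgir and Glp1r passed the filter only through the group where they were high and so had to differ to be counted. This share is therefore a description, and no p-value is given for those genes. The counts for single lists below are descriptions too, to be read beside the shares of all genes tested.

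**Figure D4:**
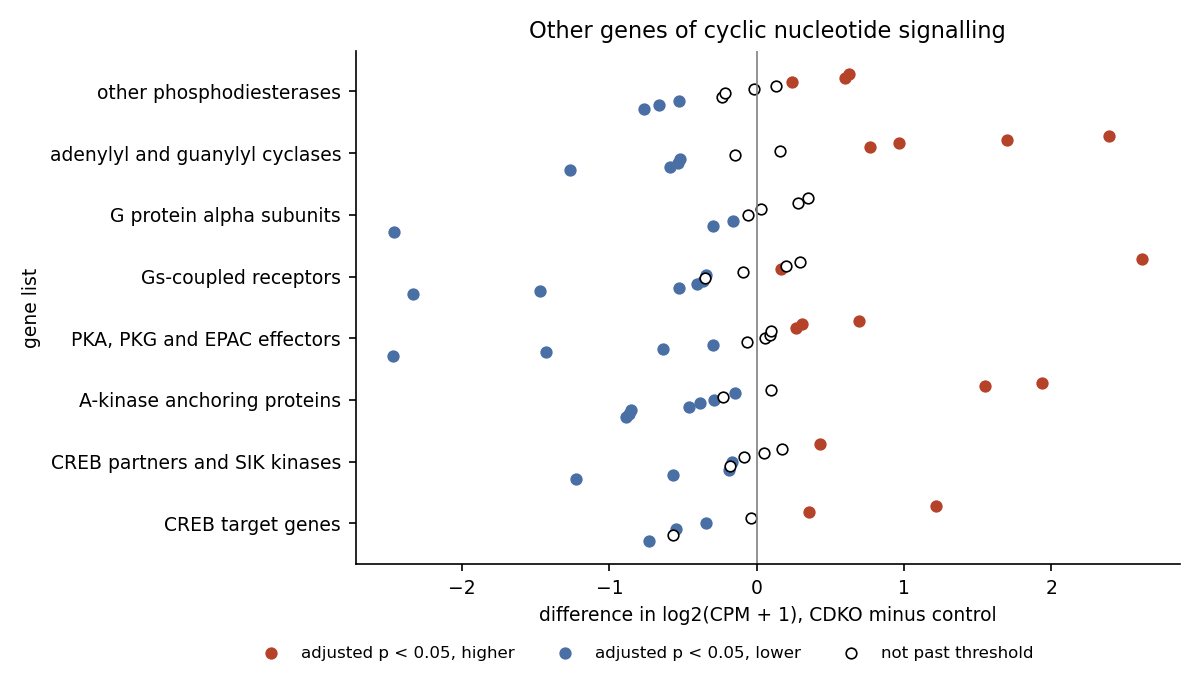
Difference in log2(CPM + 1), CDKO minus control, for 77 other genes of cyclic nucleotide signalling in 8 lists. Each point is a gene; filled points passed the threshold (red higher, blue lower in CDKO) and open points did not. The receptor, effector and anchoring lists spread to both sides, from -2.47 to 2.62.

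Of 12 tested Gs-coupled receptors 2 rose and 6 fell, or 66.7% called, where the share of all genes tested was 66.2%. Of those that fell, Ptger2, Ptgir and Glp1r had to differ to be counted. Ptger4, a cAMP-raising receptor for prostaglandin E2, fell to 46.6, 47.6 and 43.2 CPM in CDKO pools, against 62.0, 59.7 and 60.8 CPM in control pools (log2 difference -0.40, SE 0.06, limma adjusted p = 0.000201). Ptger2, the other such receptor, had 0, 0 and 0.117 CPM in CDKO pools, against 1.61, 2.14 and 1.89 CPM in control pools. The prostacyclin receptor Ptgir was likewise at 0, 0.0241 and 0.0935 CPM in CDKO pools, against 4.81, 4.99 and 3.14 CPM in control pools. In each of these genes all CDKO pools were below all control pools, and Ptger2 and Ptgir were at or near 0 in CDKO HSC.

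Hrh2, the histamine H2 receptor, rose to 12.5, 10.9 and 7.57 CPM in CDKO pools, against 0.179, 1.40 and 1.11 CPM in control pools (log2 difference 2.62, SE 0.26, limma adjusted p = 6.32e-06). Vipr2, a receptor for vasoactive intestinal peptide, rose slightly, at 76.4 ± 4.99 CPM in CDKO and 67.9 ± 2.79 CPM in control pools (limma adjusted p = 0.0356). The Vipr2 call was lost without CDKO replicate 1, CDKO replicate 3, control replicate 1 or control replicate 2 (limma adjusted p = 0.0525 to 0.135).

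Of 7 G protein alpha subunits none rose and 3 fell. Gnas, the stimulatory subunit that couples receptors to cyclase, was at 676 ± 23.9 CPM in CDKO and 663 ± 20.4 CPM in control pools (limma adjusted p = 0.554). Gnai1, an inhibitory subunit, was at 0, 0.964 and 0 CPM in CDKO pools, against 5.29, 4.99 and 7.72 CPM in control pools (limma adjusted p = 9.40e-06), and DESeq2 did not call it (adjusted p = 0.0868). Gnai3, another inhibitory subunit, fell to 260.2 ± 8.73 CPM in CDKO pools, against 291 ± 13.6 CPM in control pools (limma adjusted p = 0.0106, or 0.0546 without control replicate 2). Gnal, a stimulatory subunit of olfactory neurons, fell by 0.30 on the log2 scale (limma adjusted p = 0.0236). Its call was lost without CDKO replicate 2, CDKO replicate 3, control replicate 1 or control replicate 3 (limma adjusted p = 0.0588 to 0.0805) and after quantile normalization (limma adjusted p = 0.0830).

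Of 10 tested cyclases 4 rose and 4 fell. Adcy7, an adenylyl cyclase common in blood cells, fell to 143, 174 and 148 CPM in CDKO pools, against 208, 234 and 230 CPM in control pools (log2 difference -0.53, SE 0.07, limma adjusted p = 5.67e-05). Adcy4 rose to 6.18, 4.92 and 6.38 CPM in CDKO pools, against 0.102, 0.960 and 0 CPM in control pools (limma adjusted p = 6.05e-06), and Adcy5 was at 1.13 ± 0.198 CPM in CDKO pools, against 0.0858 ± 0.0822 CPM in control pools. All 3 CDKO pools were below the control pools for Adcy7 and above them for Adcy4 and Adcy5, both of which were low in either group.

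On the cGMP side, Npr2, a membrane guanylyl cyclase that is the receptor for C-type natriuretic peptide, fell to 31.6, 44.3 and 33.7 CPM in CDKO pools, against 88.1, 94.1 and 83.8 CPM in control pools (log2 difference -1.27, SE 0.11, limma adjusted p = 2.23e-06). The subunits of the nitric oxide receptor moved apart. Gucy1a3 fell to 44.3 ± 5.80 CPM in CDKO pools, against 66.9 ± 6.17 CPM in control pools (limma adjusted p = 0.000252). Gucy1b3 rose to 5.45 ± 1.45 CPM in CDKO pools, against 1.05 ± 0.812 CPM in control pools (limma adjusted p = 0.000116).

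Of 10 tested further phosphodiesterases, Pde7b and Pde8b above included, 3 rose and 3 fell. Pde1b, an enzyme activated by calcium and calmodulin, fell to 38.1, 38.2 and 38.4 CPM in CDKO pools, against 60.6, 57.5 and 65.4 CPM in control pools (log2 difference -0.66, SE 0.07, limma adjusted p = 8.90e-06). Pde9a, a cGMP-specific enzyme, rose to 17.4, 18.5 and 17.0 CPM in CDKO pools, against 10.7, 11.7 and 11.5 CPM in control pools (log2 difference 0.60, SE 0.11, limma adjusted p = 0.00048). Pde1c rose to 17.7 ± 3.59 CPM in CDKO pools, against 11.1 ± 1.41 CPM in control pools (limma adjusted p = 0.00334). Pde6d, a noncatalytic subunit that carries prenylated proteins, was at 51.8 ± 1.57 CPM in CDKO and 43.9 ± 5.39 CPM in control pools (limma adjusted p = 0.0278). That call was lost without CDKO replicate 2, CDKO replicate 3, control replicate 1 or control replicate 2 (limma adjusted p = 0.0667 to 0.116) and with no filter on low values (limma adjusted p = 0.0544).

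Of 11 tested PKA, PKG and EPAC genes 3 rose and 4 fell. The catalytic subunits of PKA went apart: Prkaca fell to 88.7, 93.2 and 106 CPM in CDKO pools, against 119.9, 114 and 119.9 CPM in control pools (log2 difference -0.30, SE 0.07, limma adjusted p = 0.00169). Prkacb rose to 333, 347 and 344 CPM in CDKO pools, against 263, 293 and 295 CPM in control pools (log2 difference 0.27, SE 0.05, limma adjusted p = 0.000523). Both differences were small and neither gene's groups overlapped. The main regulatory subunit gene Prkar1a was at 685 ± 42.9 CPM in CDKO and 658 ± 7.44 CPM in control pools (limma adjusted p = 0.333).

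The PKA inhibitor genes went both ways. Pkib was lower (1.40 ± 0.402 CPM in CDKO and 5.43 ± 0.535 CPM in control pools, limma adjusted p = 1.96e-05), as was Pkia (8.76 ± 0.859 and 14.3 ± 3.17 CPM, limma adjusted p = 0.0047). Pkig was higher (59.9 ± 3.47 CPM in CDKO and 48.2 ± 2.78 CPM in control pools, limma adjusted p = 0.00259). Rapgef4, which encodes the EPAC2 exchange factor, fell to 3.80, 4.89 and 5.66 CPM in CDKO pools, against 34.9, 26.1 and 31.8 CPM in control pools (log2 difference -2.47, SE 0.15, limma adjusted p = 3.41e-07). Rapgef3, the EPAC1 gene, rose to 13.9 ± 1.28 CPM in CDKO pools, against 8.38 ± 2.54 CPM in control pools (limma adjusted p = 0.00474). All CDKO pools were on one side of all control pools for each of these genes.

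Anchoring proteins hold PKA, and often a phosphodiesterase, at a site in the cell. Of 11 tested genes 2 rose and 7 fell. Pde4dip, which encodes myomegalin, an anchor for PDE4D and PKA, fell to 36.0 ± 3.05 CPM in CDKO pools, against 65.9 ± 3.97 CPM in control pools (log2 difference -0.85, SE 0.08, limma adjusted p = 4.19e-06). Akap8l and Akap7 fell as well, by 0.89 and 0.87 on the log2 scale (limma adjusted p = 8.59e-07 and 1.47e-06). Akap2 and Akap5, which were low in control HSC, rose by 1.94 and 1.55 on the log2 scale (limma adjusted p = 3.05e-06 and 4.96e-06).

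Of 9 tested partners of CREB 1 rose and 4 fell. Crtc3, a CREB coactivator, fell to 20.7, 24.5 and 23.4 CPM in CDKO pools, against 56.8, 55.2 and 52.3 CPM in control pools (log2 difference -1.23, SE 0.08, limma adjusted p = 5.94e-07). The other coactivators were at 115 ± 8.97 CPM in CDKO and 111 ± 7.03 CPM in control pools for Crtc1 (limma adjusted p = 0.514) and at 93.6 ± 8.23 and 99.2 ± 1.03 CPM for Crtc2 (limma adjusted p = 0.247, or 0.0274 and lower without CDKO replicate 3). Ep300, the p300 gene, fell to 91.0, 88.2 and 112 CPM in CDKO pools, against 135, 153 and 143 CPM in control pools (log2 difference -0.57, SE 0.08, limma adjusted p = 0.00011). Crebbp, the CBP gene, fell less, to 169.6 ± 6.50 CPM in CDKO pools, against 193 ± 11.1 CPM in control pools (limma adjusted p = 0.00816).

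Atf1, the third member of the CREB family beside Creb1 and Crem, was at 74.2 ± 7.87 CPM in CDKO and 65.7 ± 2.93 CPM in control pools (limma adjusted p = 0.0682). It passed without CDKO replicate 3 (limma adjusted p = 0.0299), in the fit blocked on replicate number (limma adjusted p = 0.0299) and by DESeq2 (adjusted p = 0.0288). Sik1, a kinase that restrains CRTC proteins and is itself a CREB target, was at 10.4 ± 2.16 CPM in CDKO and 7.35 ± 0.429 CPM in control pools (limma adjusted p = 0.0285). Its call was lost without CDKO replicate 1, CDKO replicate 2, control replicate 2 or control replicate 3 (limma adjusted p = 0.0648 to 0.115) and with no filter (limma adjusted p = 0.0690).

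Of 7 tested genes known as CREB targets 2 rose and 3 fell, the latter being Nr4a1, Per1 and Rgs2. Nr4a1 is the gene deleted by design (log2 difference -0.55, SE 0.12), so its fall says nothing about CREB targets. Per1, a circadian clock gene, fell to 11.7, 11.9 and 14.3 CPM in CDKO pools, against 24.3, 24.5 and 16.8 CPM in control pools (log2 difference -0.73, SE 0.15, limma adjusted p = 0.00119). Junb rose to 90.9 ± 6.65 CPM in CDKO pools, against 70.7 ± 5.38 CPM in control pools (limma adjusted p = 0.000962), and Ppargc1a to 5.17 ± 1.03 CPM, against 1.89 ± 1.52 CPM (limma adjusted p = 0.00484). Nr4a2, the remaining NR4A gene, was at 2.43 ± 1.22 CPM in CDKO and 3.86 ± 0.282 CPM in control pools (limma adjusted p = 0.0547). It passed without CDKO replicate 3 (limma adjusted p = 0.0141), in the fit blocked on replicate number (limma adjusted p = 0.0314) and with a pseudocount of 5 (limma adjusted p = 0.0396). Rgs2 was at 14.8 ± 2.80 CPM in CDKO and 18.8 ± 0.332 CPM in control pools (limma adjusted p = 0.0373), a call that was lost in 8 of 15 alternatives, among them leaving out any 1 library except CDKO replicate 2 (limma adjusted p = 0.0803 to 0.143).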

How the data were processed

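The deposited values per library are CPM, reads scaled by the authors to 1000000 per library; per the submitters' processing notes, which give no versions, the tools were TopHat2, HTSeq and DESeq2 and the build was mm10, and the annotation is not given in the sources used here. Dividing by the value of 1 read gave whole reads for 100.0% of values above 0 (within 0.01 read). Genes with a mean of at least 10 reads (0.255 CPM) entered a limma fit (3.58.1, R 4.3.3) of log2(CPM + 1) (moderated by eBayes, trend on), CDKO minus control, two-sided, Benjamini-Hochberg adjusted over 13732 genes; 12 genes with a date for a symbol and 2 sharing a symbol were left out. The fits were tested on simulated data. The 10 genes and the lists were chosen with earlier results of these data known. Named from the lists were up to 3 genes a direction with the smallest p, plus the NR4A, CREB partner, core PKA and G protein genes and relatives of the 10. Pkia was added outside that rule and is not among the named genes counted in the alternatives. Replicates are separate pools of mice. As alternatives, replicate number was added as a block, each library was left out in turn, filters, pseudocounts and scalings were changed, and the recovered reads were tested with edgeR 4.0.16 or DESeq2 1.42.0. Differences on the log2(CPM + 1) scale understate changes of low genes. Coordinates and exon lengths are from GENCODE M21 (GRCm38, the assembly of mm10), promoters from RefSeq GRCm38.p6.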

Additional observations from a re-analysis of the deposited data

How the results depend on the processing

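Counts of calls stayed within 1.5 times the main value under all 15 alternatives: 8250 to 9506 of all genes (9096 in the main fit), 4 to 6 of the 10 genes (6), 14 to 19 listed genes higher (17) and 30 to 36 lower (34). edgeR called 8787 genes. Nothing in the labels ties equal replicate numbers to one another, and deviations of same-numbered pools correlated at 0.0518, 0.0483 and -0.0120. With a replicate block 9241 genes were called, 6 of the 10, and 18 listed genes higher and 35 lower. Leaving out 1 library gave 8271 to 8668 genes, 4 to 6 of the 10, 14 to 17 higher and 30 to 34 lower. Among repeats for the 47 named listed genes 656 kept direction and side of the threshold, 34 lost and 7 gained it, and 5, all of genes not called, changed sign: Pde4c without CDKO replicate 1 (-0.0944; up to 0.319 without others), Crtc1 without CDKO replicate 3 (-0.00900) and without control replicate 1 (-0.00226; up to 0.0999 without others), and Gnas (-0.0177) and Prkar1a (-0.0251) after quantile normalization. Of the 10 genes, Crem and Pde8a also changed sign without 1 library, from -0.312 to 0.190 for Crem and -0.00329 to 0.188 for Pde8a. The cause was not tested. The size of the Pde10a difference depends on the scale, from 2.50 (pseudocount 5) to 5.91 (edgeR). By longest transcript length, chosen as an alternative after seeing the data, the order per kb changed only between neighbours, with 4 of 10 genes in CDKO and 4 of 10 in control pools at the same rank. The top gene changed in both groups, to Pde4b. Fewer than 3 reads cannot be told from 0, which limits Ptger2, Ptgir and Gnai1 in CDKO pools.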
